A study of Homo sapiens with 4 samples.

Results

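Drug and steroid metabolising enzymes were followed in HepG2 cells, an established line from a human hepatocellular carcinoma, after a G4 ligand. Cells were treated with 20 µM pyridostatin (PDS) for 24 h or mock-treated, and poly(A) RNA was sequenced, with 2 libraries per condition. The ligand PDS recognises guanine quadruplexes (G4), folded structures of guanine-rich DNA or RNA, and the study asked how it alters gene expression. All cells were wild type, and the series calls the libraries of a group biological replicates without saying which cultures shared a day. The members are 58 genes of 61906 in the table, listed by gene symbol and not by a cut on measured values. The list was drawn up with earlier results of these data known. They comprise 30 phase 1 genes, 25 phase 2 genes and 3 genes of the aryl hydrocarbon receptor (AHR) axis.

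Phase 1 enzymes oxidise, reduce or hydrolyse a drug or steroid and so expose a polar group on it. Most are cytochromes P450, which take their electrons from NADPH through the reductase POR and, for some reactions, through cytochrome b5 (CYB5A). Phase 2 enzymes then couple the product to glucuronic acid (UGT), sulfate (SULT) or glutathione (GST and MGST), which makes it easier to excrete. AHR is a ligand-activated transcription factor that induces CYP1A1, while AHRR and TIPARP, both AHR targets, restrain it. HepG2 is a single tumour line and is known for holding little of several P450 enzymes that are abundant in hepatocytes.

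The deposited values are TPM (transcript abundance as a length-corrected share), a level that sums to the same total in every library. The reads behind them, recovered from TPM and exon length, numbered 15573166 and 19647907 in the PDS libraries and 39217670 and 30408397 in the Mock libraries. The mitochondrial genome took 36.5% and 36.4% of TPM in the PDS libraries and 15.3% and 14.5% in the Mock libraries, and the TPM of most other genes was lower after PDS. Each library was therefore divided by the median ratio of its expressed genes, and a log2 fold change below is PDS minus Mock relative to the median gene, on log2(scaled TPM + 1). The median log2 fold change of all tested genes was 0 after this scaling, -0.06 under quantile normalization, -0.2 for nuclear TPM (mitochondrial genes removed) and -0.55 for TPM as deposited. A gene was tested with limma if it had a mean of at least 1 TPM, and was called higher or lower at an adjusted p below 0.05 over all tested genes. Of 14686 tested genes 4283 were called, 2377 higher and 1906 lower. The 11 listed hepatocyte markers summed to 49470 and 48173 TPM in PDS and 55572 and 58774 TPM in Mock. After scaling 8 of them were called higher and 2 lower, against 3 higher and 8 lower under quantile normalization and 2 higher and 6 lower in TPM as deposited, and their part in the results below was not tested. The summed TPM of the listed blood and endothelial markers was 2.18 to 2.55 in PDS and 3.74 to 4.5 in Mock, and that of fibroblast markers, nearly all PDGFRB, was 12.2 and 14.7 in PDS and 20.6 and 20.0 in Mock. In bulk RNA such as this, fewer cells of a kind and less RNA per cell cannot be told apart.

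Of the 58 members 43 had a mean of at least 1 TPM, and the strongest belonged to both phases. GSTO1 had the highest mean level, followed by POR, MGST2, CES1, UGT2B10, SULT2A1 and EPHX1. Together the phase 1 members held 589 and 599 TPM in the PDS libraries and 928 and 908 TPM in the Mock libraries. For the phase 2 members the sums were 902 and 884 TPM in PDS and 1287 and 1311 TPM in Mock. Both sums were lower after PDS, as for most genes by TPM, and the ratio of phase 2 to phase 1 within a library was 1.53 and 1.47 in PDS against 1.39 and 1.44 in Mock. This ratio does not depend on scaling between libraries, and the PDS libraries lay above the Mock libraries by a small margin.

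**Figure D1:**
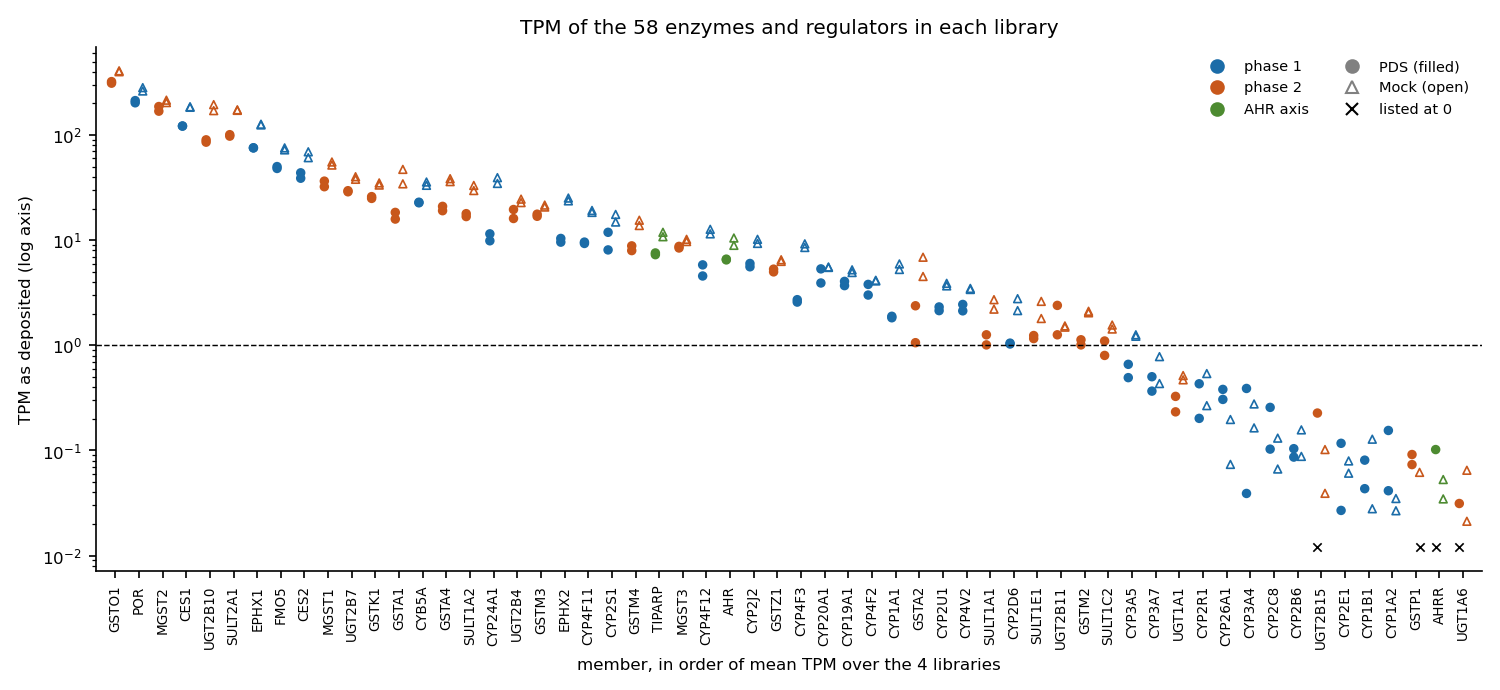
TPM as deposited (log axis) of each of the 58 members in the 4 libraries, ordered by mean TPM; filled circles are PDS, open triangles Mock, crosses values listed at 0, and the dashed line is the 1 TPM limit for testing. The 15 members right of SULT1C2 had a mean below 1 TPM.

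With a mean below 1 TPM, 15 members were too low to judge. These were 10 phase 1 genes (CYP1A2, CYP1B1, CYP2B6, CYP2C8, CYP2E1, CYP2R1, CYP3A4, CYP3A5, CYP3A7 and CYP26A1), 4 phase 2 genes (UGT1A1, UGT1A6, UGT2B15 and GSTP1) and AHRR. Several are leading drug-metabolising enzymes of the adult liver, which these libraries could therefore not assess. CYP3A4, the main oxidase of clinical drugs, had 0.389 and 0.039 TPM in PDS and 0.277 and 0.164 TPM in Mock, from 8 and 1 reads in PDS and 11 and 5 reads in Mock. CYP1A2, the caffeine demethylase, had 0.155 and 0.0414 TPM in PDS and 0.0267 and 0.0349 TPM in Mock, from 1 to 3 reads. Neither gene gave enough reads to read a direction from. UGT1A6, UGT2B15 and AHRR were each at 0 in the second PDS library, where a count of 0 allows up to 0.0754, 0.182 and 0.041 TPM, and GSTP1 was at 0 in the first Mock library, which allows up to 0.142 TPM (3 reads, counting error only). The members nearest the limit were CYP3A7 (mean 0.521 TPM) and CYP3A5 (0.907 TPM) below it, and SULT1C2 (1.22 TPM) and GSTM2 (1.57 TPM) above it.

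A further 4 members were tested but had fewer than 30 reads in at least 1 library and are uncertain. CYP2D6, which oxidises many antidepressants and opioids, had 15 and 19 reads in PDS and 78 and 46 in Mock, and 30% of its 100-base windows also occur in CYP2D7 or CYP2D8P. GSTA2 had 18 and 10 reads in PDS and 66 and 77 in Mock. SULT1E1, the estrogen sulfotransferase, had 15 and 20 reads in PDS and 45 and 50 in Mock, while UGT2B11 had 35 and 23 reads in PDS and 42 and 33 in Mock. None of the 4 passed the threshold in the main fit. In limma voom, a fit to the recovered reads, GSTA2 was called lower (log2 fold change -1.14, adjusted p = 0.0283) and UGT2B11 higher (0.82, adjusted p = 0.0493). CYP2D6 and SULT1E1 did not pass there either.

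After median-of-ratios scaling, the phase 1 members called were all lower after PDS, whereas phase 2 members were called in both directions. Of the 43 tested members 14 were called (32.6%), against 29.2% of all tested genes. Among 20 tested phase 1 members 0 were higher and 6 were lower (CYP24A1, CYP4F3, CYP1A1, EPHX2, CYP4F12 and CYP4F11), and the median of the 20 log2 fold changes was -0.07. At an unadjusted p below 0.05 limma had 1 phase 1 member higher, and voom on the recovered reads called 1 higher after adjustment. Among 21 tested phase 2 members 5 were higher (MGST2, MGST3, GSTM3, GSTO1 and UGT2B7) and 3 were lower (GSTA1, UGT2B10 and GSTA4), with a median of -0.01. Over all tested genes 16.2% were called higher and 13.0% lower, and the median was 0. Under quantile normalization phase 1 had 0 higher and 6 lower, and phase 2 had 3 higher and 4 lower. For nuclear TPM both phases had 0 higher, with 9 phase 1 and 7 phase 2 members lower (33.2% of all tested genes were lower). In TPM as deposited each phase had 0 higher and 18 lower (71.8% of all tested genes), so the contrast in direction depended on the scaling. Members are not replicates, so the difference between the phases was not tested.

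**Figure D2:**
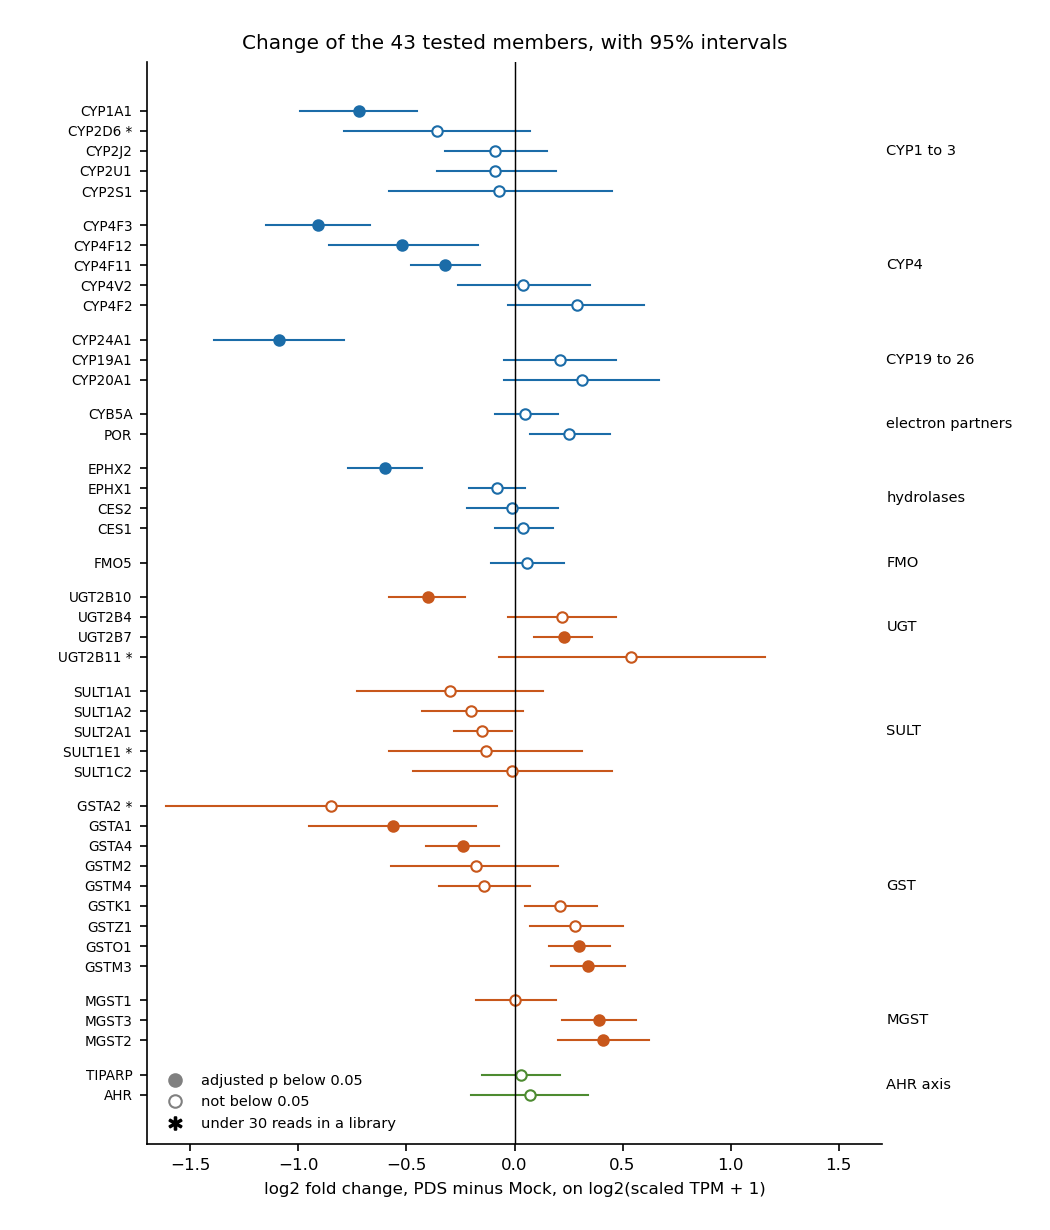
Log2 fold change (PDS minus Mock, on log2(scaled TPM + 1)) of the 43 tested members by family, with 95% intervals from limma (n = 2 libraries per group); filled points passed the adjusted threshold of 0.05. Filled phase 1 points lie left of 0, down to CYP24A1 at -1.09, and filled phase 2 points lie on both sides, between GSTA1 at -0.56 and MGST2 at 0.41.

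The calls depended on which libraries were included, and the higher calls also on the scaling. Without either Mock library 0 members passed, with limma adjusted p from 0.0581 to 0.211 for the 14, although over the 4 fits that each left out 1 library every one of the 14 kept its sign. At an unadjusted p below 0.05, 15 members passed without the first Mock library and 14 without the second, and voom on all libraries called 19 after adjustment. Without the first PDS library 5 members were lower and 1 higher, and without the second PDS library again 5 and 1. CYP1A1, CYP4F3, CYP24A1 and EPHX2 remained lower in both of those fits, CYP4F12 and MGST2 kept their call in 1 of them, and the other 8 in neither. The 5 higher members were higher relative to the median gene under median-of-ratios scaling, and stayed above 0 under quantile normalization and for nuclear TPM, but had negative log2 fold changes in TPM as deposited. For nuclear TPM 0 members were higher and 16 were lower (33.2% of all tested genes were lower), and for TPM as deposited 0 were higher and 38 lower (71.8% of all tested genes). At an unadjusted p below 0.05, 2 members were higher for nuclear TPM and 0 in TPM as deposited. The 9 lower members kept a negative sign in all alternatives.

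**Figure D3:**
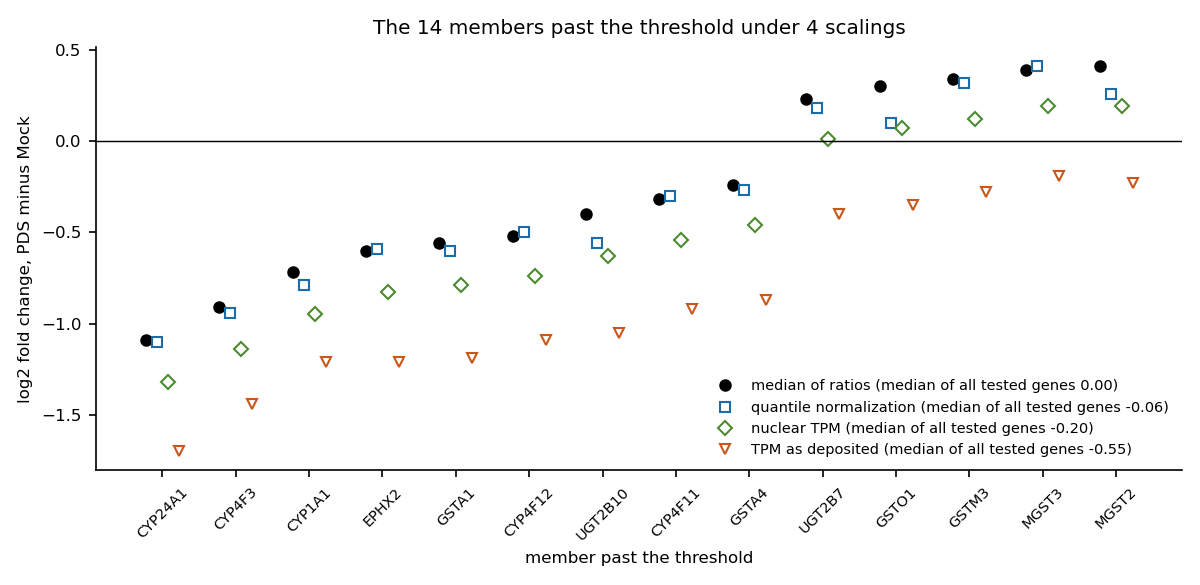
Log2 fold change (PDS minus Mock) of the 14 called members under 4 scalings of the libraries, each shown as 1 symbol, with the median of all 14686 tested genes for each scaling in the legend. The 9 members on the left lie below 0 under all 4 scalings, and the 5 on the right lie below 0 only in TPM as deposited.

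Because PDS binds G4, promoters of the members were searched for a G4 motif. RefSeq promoters (GRCh38.p14, 250 bases before to 50 after the start) matched 47 of the 58 members by symbol. The motif was 4 runs of at least 3 G separated by 1 to 7 bases, on either strand, so that runs of C count as G on the other strand. It occurred in 11 of 47 member promoters (23.4%) and in 6582 of 27305 promoters of all genes (24.1%). Among the called members with a promoter, 1 of 6 lower (CYP1A1) and 1 of 4 higher (GSTO1) held it. Of the 33 tested members with a promoter 9 held it, and all of these except CYP1A1 and GSTO1 were not called. The letters GCGTG, the core of the DNA element that AHR binds, occurred in 16 of 47 member promoters (34.0%) and in 36.3% of all promoters, searched on both strands. CYP1B1, CYP2D6, CYP4F12, CYP24A1, POR, EPHX2, CES1, UGT2B4, SULT1A1, SULT1A2 and MGST2 had no entry.

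Sequence upstream of the RefSeq start is shown for 2 called members that held the motif and for the CYP4F2 and CYP4F3 pair, whose ratio within a library differed between the groups. Each is 100 bases, 5′ to 3′ on the gene's strand in GRCh38.p14, with the motif in capitals. CYP1A1 is at chr15:74725629-74725728 on the minus strand and GSTO1 at chr10:104254792-104254891 on the plus strand. CYP4F2 is at chr19:15898075-15898174 on the minus strand and CYP4F3 at chr19:15641212-15641311 on the plus strand.
CYP1A1: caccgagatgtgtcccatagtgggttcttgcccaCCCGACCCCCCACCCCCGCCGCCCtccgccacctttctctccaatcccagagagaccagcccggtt
GSTO1: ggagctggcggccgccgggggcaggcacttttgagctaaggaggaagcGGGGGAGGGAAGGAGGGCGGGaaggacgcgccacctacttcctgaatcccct
CYP4F2: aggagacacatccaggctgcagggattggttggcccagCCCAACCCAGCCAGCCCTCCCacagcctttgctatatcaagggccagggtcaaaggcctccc
CYP4F3: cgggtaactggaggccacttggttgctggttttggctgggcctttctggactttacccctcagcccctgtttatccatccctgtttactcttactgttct
GSTO1 carries the motif as G on its own strand, CYP1A1 and CYP4F2 carry it as C, and the CYP4F3 stretch has no match. In these printed stretches, which were picked for display, the motif stood before 1 lower gene, 1 higher gene and 1 gene that did not pass. Most tested members that held the motif were not called, and a match is only a run of letters here.

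In the first 3 P450 families, which carry most drug oxidation, CYP1A1 was the one called member. CYP1A1 (chr15:74719542-74725536) oxidises polycyclic aromatic hydrocarbons and is the classical AHR target. It had 1.83 and 1.89 TPM in PDS (38 and 49 reads) and 5.27 and 5.95 TPM in Mock (212 and 183 reads). The groups did not overlap, and CYP1A1 fell with a log2 fold change of -0.72 ± 0.105 (SE; limma, adjusted p = 0.0123). At this level the pseudocount of 1 shrinks the change, which was -0.92 with a pseudocount of 0.1 and the same in limma voom on the recovered reads. Its call was lost without either Mock library (log2 fold change -0.76 and -0.66, limma adjusted p = 0.076 and 0.109; range over its alternatives 0.000495 to 0.109).

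The other tested members of these families were CYP2J2, CYP2S1, CYP2U1 and CYP2D6, and none passed. CYP2J2, an epoxygenase of arachidonic acid, had 5.59 and 6.01 TPM in PDS and 10.2 and 9.33 TPM in Mock, and its scaled values overlapped between the groups (log2 fold change -0.09, 95% interval -0.32 to 0.15). CYP2S1, the most abundant of the 5, had 8.09 and 11.9 TPM in PDS and 17.6 and 14.9 TPM in Mock. Its PDS libraries differed widely, and the 95% interval of its log2 fold change ran from -0.58 to 0.45. CYP2U1 had 2.32 and 2.14 TPM in PDS and 3.68 and 3.89 TPM in Mock (log2 fold change -0.09), and the uncertain CYP2D6 1.03 and 1.05 TPM in PDS and 2.78 and 2.14 TPM in Mock.

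The CYP4F enzymes, which hydroxylate the end of fatty acid chains, leukotrienes and vitamins E and K, lie side by side on chromosome 19, and 3 of the 4 were called lower while CYP4F2 did not pass. CYP4F3 (chr19:15640897-15662825), the leukotriene B hydroxylase, had 2.72 and 2.58 TPM in PDS and 9.24 and 8.53 TPM in Mock. It fell with a log2 fold change of -0.91 ± 0.0934 (SE; limma, adjusted p = 0.00717), and its highest PDS library lay far under its lowest Mock library. CYP4F12 had 4.57 and 5.83 TPM in PDS and 12.7 and 11.5 TPM in Mock, and fell with a log2 fold change of -0.52 ± 0.134 (SE; limma, adjusted p = 0.0447). CYP4F11 had 9.32 and 9.6 TPM in PDS and 18.4 and 19.2 TPM in Mock (log2 fold change -0.32 ± 0.0633, SE; limma, adjusted p = 0.0233). In all 3 the groups stayed apart after scaling. CYP4F2 (chr19:15878023-15898077), which inactivates vitamin K, had 3.8 and 3.01 TPM in PDS and 4.1 and 4.16 TPM in Mock. After scaling its PDS libraries were above Mock, but the log2 fold change of 0.29 (95% interval -0.03 to 0.6) did not pass and was -0.22 in TPM as deposited. CYP4V2, a fatty acid hydroxylase of the retina on another chromosome, had 2.13 and 2.45 TPM in PDS and 3.4 and 3.48 TPM in Mock and a log2 fold change of 0.04, with scaled groups that overlapped.

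Ratios between related genes within 1 library need no scaling between libraries. The ratio of CYP4F3 to CYP4F2 was 0.716 and 0.858 in PDS and 2.25 and 2.05 in Mock, so CYP4F3 was the weaker gene of the pair after PDS and the stronger one in Mock. CYP4F12 to CYP4F2 gave 1.2 and 1.94 in PDS and 3.1 and 2.77 in Mock. CYP4F11 to CYP4F2 gave 2.45 and 3.19 in PDS and 4.49 and 4.62 in Mock. All 3 ratios to CYP4F2 were lower in both PDS libraries, with reads for CYP4F2 of 73 and 72 in PDS and 152 and 118 in Mock. Between CYP4F11 and CYP4F12 the ratio overlapped between the groups. Of the 100-base windows of CYP4F3 1.56% also occur in CYP4F2, and 2.59% of those of CYP4F2 occur in CYP4F3. With 2 libraries per group the smallest two-sided p an exact permutation test can give is 0.333, and the ratios here and below were not tested. They use the same values as the calls and are no separate support. Most ratios formed between related members lay apart between the groups. Groups this small often do, since 35.8% of all tested genes lay below Mock and 35.0% above after scaling.

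**Figure D4:**
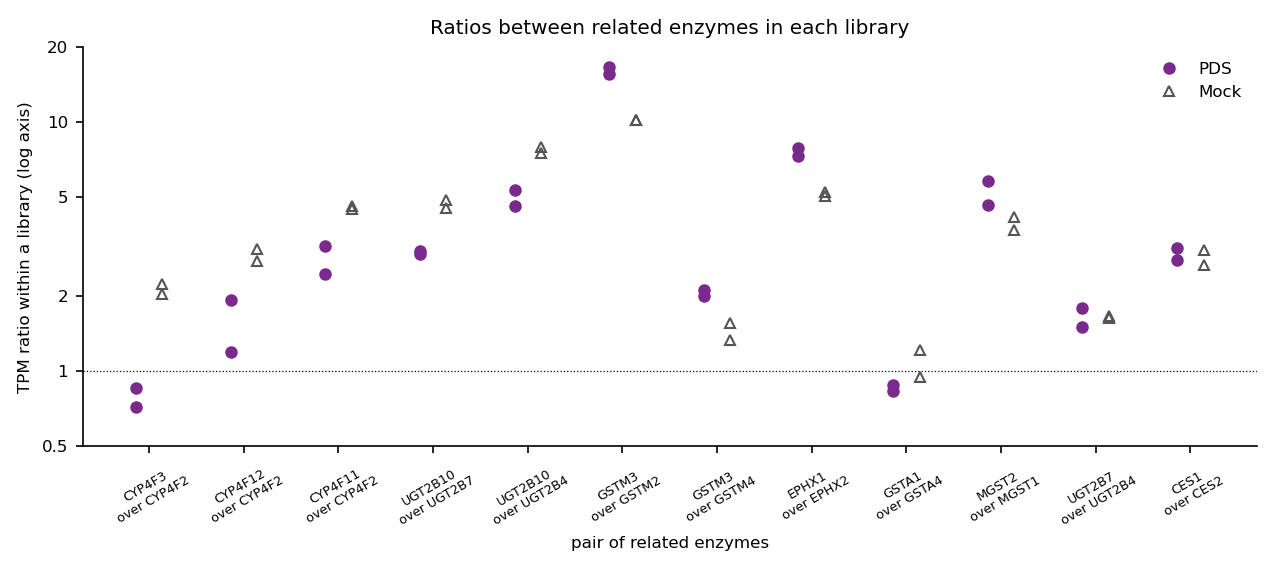
Ratio of TPM between related members within each library (log axis), with PDS libraries as filled circles left of the Mock libraries as open triangles. CYP4F3 over CYP4F2 lies below 1 in PDS (0.716 and 0.858) and above 2 in Mock (2.25 and 2.05), while UGT2B7 over UGT2B4 and CES1 over CES2 overlap.

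CYP24A1, which inactivates vitamin D hormone, was the member with the largest fall. CYP24A1 (chr20:54153446-54173986) had 9.88 and 11.5 TPM in PDS (244 and 354 reads) and 39.4 and 34.7 TPM in Mock (1881 and 1266 reads). The groups were far apart, and the log2 fold change was -1.09 ± 0.115 (SE; limma, adjusted p = 0.00717), or 2.13-fold lower. Over its 14 alternatives the log2 fold change lay between -1.7 and -0.98, and the call was lost without either Mock library (-0.98 and -1.2; limma adjusted p = 0.0581 and 0.0655, within a range of 9.26e-07 to 0.0655). CYP19A1, the aromatase that makes estrogens, had 3.7 and 4.06 TPM in PDS and 5.23 and 4.93 TPM in Mock, and did not pass (log2 fold change 0.21, 95% interval -0.05 to 0.47). CYP20A1, a P450 of unknown substrate, had 5.34 and 3.92 TPM in PDS and 5.51 and 5.56 TPM in Mock and did not pass either (log2 fold change 0.31). Both were above Mock after scaling and below it in TPM as deposited. CYP26A1, which degrades retinoic acid, was too low to judge, with 0.381 and 0.306 TPM in PDS and 0.197 and 0.0737 TPM in Mock.

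The partners that feed electrons to the P450 enzymes did not pass. POR had 203 and 213 TPM in PDS and 283 and 263 TPM in Mock. It lay above Mock after scaling and just missed the threshold (log2 fold change 0.25 ± 0.0731, SE; limma, adjusted p = 0.0573), passed as higher when genes below a mean of 5 TPM were left out, and was lower, at -0.39, in TPM as deposited. CYB5A had 23 and 22.7 TPM in PDS and 33.3 and 35.8 TPM in Mock (log2 fold change 0.05, 95% interval -0.09 to 0.2).

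Among the hydrolases EPHX2 stood out from its partner EPHX1. EPHX2, the soluble epoxide hydrolase that opens epoxides of fatty acids, had 10.4 and 9.59 TPM in PDS and 23.7 and 25.2 TPM in Mock. It fell with a log2 fold change of -0.6 ± 0.0658 (SE; limma, adjusted p = 0.00743), and the groups were well apart. EPHX1, the microsomal enzyme that opens epoxides of drugs, had 75.8 and 75.5 TPM in PDS and 125 and 127 TPM in Mock and did not pass (log2 fold change -0.08). Within a library EPHX1 exceeded EPHX2 by 7.28 and 7.87 times in PDS and by 5.26 and 5.03 times in Mock. The carboxylesterases, which cleave ester drugs, gave no call. CES1 had 122 and 122 TPM in PDS and 186 and 184 TPM in Mock (log2 fold change 0.04), but 25.7% of its 100-base windows also occur in CES1P1 or CES1P2. CES2 had 43.8 and 38.9 TPM in PDS and 61 and 69.4 TPM in Mock (log2 fold change -0.01), and the flavin monooxygenase FMO5 had 48.2 and 50.2 TPM in PDS and 75.6 and 72.4 TPM in Mock (0.06). The 95% intervals of these log2 fold changes were -0.09 to 0.18 for CES1, -0.22 to 0.2 for CES2 and -0.11 to 0.23 for FMO5.

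Among the glucuronosyltransferases of the UGT2B cluster on chromosome 4, which conjugate steroids and bile acids, UGT2B10 and UGT2B7 were called in opposite directions. UGT2B10 (chr4:68815994-68832023), which couples nicotine and tertiary amines, was the strongest and had 90.2 and 85.7 TPM in PDS and 171 and 195 TPM in Mock. It fell with a log2 fold change of -0.4 ± 0.0682 (SE; limma, adjusted p = 0.0165), and 4.39% of its windows are shared with other UGT2B genes and pseudogenes. UGT2B7 (chr4:69051363-69112987), which couples morphine and estrogens, had 29.6 and 28.9 TPM in PDS and 38 and 40.2 TPM in Mock. Its fall in TPM was smaller than that of the median gene, so it was higher after scaling (log2 fold change 0.23 ± 0.0535, SE; limma, adjusted p = 0.0349), at 0.01 for nuclear TPM and -0.4 in TPM as deposited. The ratio of UGT2B10 to UGT2B7 was 3.04 and 2.96 in PDS and 4.5 and 4.86 in Mock, lower in both PDS libraries without any scaling. UGT2B4, a bile acid glucuronosyltransferase, had 19.6 and 16.1 TPM in PDS and 22.8 and 24.6 TPM in Mock and did not pass (log2 fold change 0.22). Its ratio to UGT2B7 overlapped between the groups. UGT2B11 had 2.4 and 1.26 TPM in PDS and 1.49 and 1.53 TPM in Mock, the one tested member whose TPM overlapped between the groups before scaling, and it is uncertain. UGT1A1, the bilirubin enzyme, had 0.327 and 0.233 TPM in PDS and 0.47 and 0.516 TPM in Mock, too low to judge, and 50.1% of its exon bases lie in other UGT1A genes.

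None of the 5 sulfotransferases passed (1 at an unadjusted p below 0.05 in limma, 0 called by voom), and all 5 had a log2 fold change below 0, between -0.3 and -0.01. SULT2A1, which sulfates dehydroepiandrosterone and bile acids, was by far the strongest with 101 and 97.8 TPM in PDS and 174 and 172 TPM in Mock. Its PDS libraries were below Mock after scaling, and its log2 fold change of -0.15 ± 0.0523 (SE; limma, adjusted p = 0.0927) became a call under quantile normalization and for nuclear TPM. SULT1A2 had 16.8 and 17.9 TPM in PDS and 33.2 and 29.7 TPM in Mock, and the phenol sulfotransferase SULT1A1 1.01 and 1.26 TPM in PDS and 2.72 and 2.21 TPM in Mock. These near copies on chromosome 16 share sequence with overlapping genes, with each other and with SULT1A3, so their values are uncertain. Overlapping genes cover 23.1% of the exon bases of SULT1A1 and 22.1% of those of SULT1A2. From all these sources, 19.3% of the windows of SULT1A1 and 18.0% of those of SULT1A2 occur elsewhere. SULT1C2 had 1.1 and 0.802 TPM in PDS and 1.56 and 1.43 TPM in Mock, and SULT1E1 1.16 and 1.24 TPM in PDS and 1.8 and 2.62 TPM in Mock. Both overlapped after scaling.

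Among the cytosolic and related glutathione transferases, GSTA1 and GSTA4 of the alpha class were lower and GSTM3 and GSTO1 were higher relative to the median gene. GSTA1 (chr6:52791371-52803860), the main alpha enzyme of hepatocytes, had 18.4 and 15.9 TPM in PDS and 34.4 and 47.2 TPM in Mock. It fell with a log2 fold change of -0.56 ± 0.148 (SE; limma, adjusted p = 0.0455), which ranged from -0.77 to -0.37 when 1 library was left out, and 8.09% of its windows also occur in GSTA2. GSTA4, which conjugates the lipid peroxidation product hydroxynonenal, had 21 and 19.1 TPM in PDS and 36.1 and 38.5 TPM in Mock and fell slightly (log2 fold change -0.24 ± 0.0649, SE; limma, adjusted p = 0.0483). Both lay near the threshold, and their calls were lost without any 1 of the 4 libraries, with limma adjusted p from 0.06 to 0.162 for GSTA1 and 0.0657 to 0.211 for GSTA4. GSTA2 had 2.38 and 1.06 TPM in PDS and 4.52 and 6.89 TPM in Mock and did not pass (log2 fold change -0.85, 95% interval -1.61 to -0.08). It is uncertain for its few reads.

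GSTM3 (chr1:109733932-109741038), a mu-class enzyme prominent in brain and testis, had 17.7 and 16.9 TPM in PDS and 21.6 and 20.7 TPM in Mock. It was higher relative to the median gene (log2 fold change 0.34 ± 0.0659, SE; limma, adjusted p = 0.0225), at 0.12 for nuclear TPM and -0.28 in TPM as deposited. GSTM4 had 8.84 and 7.97 TPM in PDS and 13.8 and 15.5 TPM in Mock, and GSTM2 1.13 and 1.01 TPM in PDS and 2.11 and 2.04 TPM in Mock. Neither passed (log2 fold change -0.14 and -0.18). Within a library GSTM3 exceeded GSTM4 by 2 and 2.12 times in PDS and by 1.56 and 1.34 times in Mock. Over GSTM2, in the same cluster on chromosome 1, the ratio was 15.6 and 16.7 in PDS and 10.2 and 10.2 in Mock. Both ratios were higher in both PDS libraries and, like the other ratios, were not tested. For GSTM2, 9.74% of windows occur in other mu-class genes, and for GSTM3 2.15% are shared with an overlapping gene.

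GSTO1 (chr10:104235356-104267459), the omega-class enzyme that reduces methylated arsenic, was the most abundant member with 323 and 312 TPM in PDS and 409 and 401 TPM in Mock. It was higher relative to the median gene (log2 fold change 0.3 ± 0.0549, SE; limma, adjusted p = 0.02), but at 0.1 under quantile normalization, 0.07 for nuclear TPM and -0.35 in TPM as deposited. The mitochondrial and peroxisomal GSTK1 had 26 and 25 TPM in PDS and 35.1 and 33.5 TPM in Mock, and GSTZ1, which isomerises maleylacetoacetate in tyrosine breakdown, 5.31 and 5 TPM in PDS and 6.52 and 6.29 TPM in Mock. Both lay above Mock after scaling and just missed the threshold (log2 fold change 0.21 and 0.28, limma adjusted p = 0.0623 and 0.0578), and both were called higher when genes below a mean of 5 TPM were left out. In TPM as deposited both were called lower.

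Of the membrane-bound glutathione transferases MGST2 and MGST3 were higher relative to the median gene, and MGST1 did not pass. MGST2, which can make leukotriene C and reduces lipid peroxides, had 169 and 187 TPM in PDS and 215 and 204 TPM in Mock. Its log2 fold change of 0.41 ± 0.0818 (SE; limma, adjusted p = 0.0235) was 0.26 under quantile normalization, 0.19 for nuclear TPM and -0.23 in TPM as deposited. Of its exon bases 7.94% overlap MAML3. MGST3 had 8.74 and 8.44 TPM in PDS and 9.72 and 10.2 TPM in Mock, with a log2 fold change of 0.39 ± 0.066 (SE; limma, adjusted p = 0.0164), 0.19 for nuclear TPM and -0.19 in TPM as deposited. MGST1, which protects membranes of the endoplasmic reticulum and mitochondria, had 36.5 and 32.3 TPM in PDS and 51.9 and 55.5 TPM in Mock, a log2 fold change of 0 (95% interval -0.18 to 0.19). MGST2 exceeded MGST1 by 4.64 and 5.81 times in PDS and by 4.15 and 3.68 times in Mock, and its ratio to MGST3 overlapped between the groups.

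On the AHR axis neither tested gene passed, beside the lower CYP1A1. AHR had 6.5 and 6.61 TPM in PDS and 10.5 and 8.94 TPM in Mock (log2 fold change 0.07, 95% interval -0.2 to 0.34), with 35.2% of its exon bases in overlapping noncoding genes. TIPARP had 7.57 and 7.29 TPM in PDS and 10.8 and 11.9 TPM in Mock (log2 fold change 0.03, 95% interval -0.15 to 0.21). Scaled values of both overlapped between the groups, and both signs turned for nuclear TPM (-0.13 and -0.18). AHRR was too low to judge, with 0.102 and 0 TPM in PDS and 0.0529 and 0.0346 TPM in Mock. Of its exon bases 58.7% lie in the PDCD6-AHRR readthrough gene.

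Among the receptors and partners that drive these enzymes 15 of 18 listed genes were tested. Of these 2 were called higher and 7 lower, beside 16.2% higher and 13.0% lower over all tested genes, and the median of their log2 fold changes was -0.26. The list was not tested against other genes. PPARA, the fatty acid receptor, had 6 and 5.78 TPM in PDS and 13 and 15.5 TPM in Mock and fell with a log2 fold change of -0.56 (limma, adjusted p = 0.0147). NR1I2, the pregnane X receptor that induces CYP3A4, had 3.45 and 3.2 TPM in PDS and 7.08 and 7.43 TPM in Mock and fell (-0.4; limma, adjusted p = 0.0272). CEBPB, a transcription factor of acute-phase genes, was higher relative to the median gene (log2 fold change 0.33), but -0.31 in TPM as deposited. The 3 untested genes, named after their values were seen, were NR1I3, VDR and ESR1, and VDR, the vitamin D receptor that induces CYP24A1, had 0.0569 and 0.114 TPM in PDS and 0.0736 and 0.212 TPM in Mock.

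Genes that supply electrons and cosubstrates changed in both directions. Of 18 listed genes 16 were tested, with 4 higher and 2 lower, or 37.5% called against 29.2% of all tested genes, and the median of their log2 fold changes was 0.07 (0 under quantile normalization, -0.15 for nuclear TPM and -0.56 in TPM as deposited). CYB5B and CYB5R1, a cytochrome b5 and a cytochrome b5 reductase, and PGRMC1, a heme-binding partner of P450 enzymes, were higher relative to the median gene (log2 fold change 0.39, 0.39 and 0.37), but negative in TPM as deposited. CYB5R3, the main cytochrome b5 reductase, was higher in the same way (0.37, but -0.27 in TPM as deposited), and GSR, which restores reduced glutathione, was lower (-0.21). Heme supply, which the P450 enzymes need, had 12 tested genes of 12, with 2 higher and 1 lower, or 25% called against the same 29.2%, and a median of 0.02. ALAS1, the rate-limiting enzyme of heme synthesis, had 57.8 and 65.1 TPM in PDS and 67.3 and 68 TPM in Mock, and was higher relative to the median gene (0.5; limma, adjusted p = 0.0147) and at -0.14 in TPM as deposited. FECH, which inserts the iron, had 3.83 and 3.75 TPM in PDS and 7.35 and 8.38 TPM in Mock and fell (-0.34; limma, adjusted p = 0.0425). BLVRA, which reduces biliverdin, was higher at 0.32, and at -0.32 in TPM as deposited.

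After scaling, the PDS libraries of 18 members lay below both Mock libraries, those of 15 lay above both, and 10 overlapped. Over all tested genes 35.8% lay below and 35.0% above. In TPM as deposited 42 of the 43 lay below (82.1% of all tested genes), the exception being UGT2B11. Both phases had 9 members below after scaling, with 6 phase 1 and 9 phase 2 members above.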

How the data were processed

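Per the authors, STAR (2.7.0) placed the reads on GRCh38, featureCounts (2.0.3) counted them per gene, and DESeq2 (1.36.0) made the study's own tests, whose results were not used. The deposited values are TPM per gene, a length-corrected expression signal. The annotation release, strand setting and TPM formula are not given in the sources used here. Without the strand setting, reads of overlapping genes cannot be told apart.

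Symbols and positions came from GENCODE release 44 by Ensembl identifier. Of 61906 identifiers 59984 (96.9%) matched with their version, and CYP3A5, POR, UGT2B4 and GSTM4 matched without it. For versioned matches TPM times exon length fell on whole reads (at least 99.89% of values up to 1000 reads within 0.05 of a whole number). Repeated identifiers (2) and rows without one (2, column totals) were left out.

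Libraries were scaled by median-of-ratios factors (0.806 and 0.792 for PDS, 1.23 and 1.27 for Mock), and log2(scaled TPM + 1) of genes averaging 1 TPM or more was tested in limma (version 3.58.1 under R 4.3.3) with a variance trend, two-sided, with Benjamini-Hochberg adjustment. The pseudocount understates changes of low genes. The fit was also run on simulated counts, with far fewer changed genes than were called here and no mitochondrial shift. That run does not show how reliable the calls here are. A count model was not the main test because the files hold TPM. Replicates differed by more than counting error (chi-square per degree of freedom 4.56 in PDS and 7.16 in Mock), and p-values reflect only how these libraries vary. Alternatives were other pseudocounts, filters and scalings, a replicate block, limma without the trend, voom on recovered reads and leaving out each library.

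Members past the threshold are given with all 4 values and the others with values or by count. From each other list up to 4 called genes with the largest change are named. Some called genes of those lists are not reported here. The members and lists were chosen with earlier results of these data known. Shared sequence was measured as overlapping exon bases and as 100-base transcript windows that also occur in another gene. Promoter sequences are from RefSeq (GRCh38.p14). Tables and plots were made with Python (3.11.15).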

Additional observations from a re-analysis of the deposited data

How the results depend on the processing

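Both groups have 2 libraries, and the PDS libraries hold fewer reads. For the 43 tested members in up to 14 alternatives, 434 of 587 values kept direction and side of the threshold. With the direction kept, 78 lost the call and 31 gained one. The other 44 changed sign, and some of these also gained a call, such as CES1, called lower in TPM as deposited. The pseudocounts of 0.5 and 0.1 changed no member's call. All genes called numbered 4283, and 1237 with no filter, 10917 in TPM as deposited and 0 to 2117 without 1 library. Without the second Mock library limma called 0 genes, with 4173 at an unadjusted p below 0.05 and 5455 called by voom on all libraries. Members called higher (5) numbered 0 with no filter, 8 with the filter at 5 TPM, 0 in TPM as deposited, 3 under quantile normalization, 0 for nuclear TPM, 2 without the variance trend, 9 with voom and 0 to 1 without 1 library. Members called lower (9) numbered 3 with no filter, 38 in TPM as deposited, 16 for nuclear TPM and 0 to 5 without 1 library. Phase 1 members called (6) numbered 3 with no filter, 18 in TPM as deposited and 0 to 5 without 1 library. Phase 2 members called (8) numbered 0 with no filter, 18 in TPM as deposited, 3 without the variance trend and 0 to 2 without 1 library. The cause of these shifts was not tested. Dividing each library by a factor moves all genes in the same direction, but quantile normalization does not move them alike. The log2 fold change of GSTO1 went from 0.3 in the main fit to 0.1 there, and that of GSTM3 from 0.34 to 0.32.

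The differences between replicates were nearly uncorrelated between PDS and Mock over the tested genes (correlation of the deviations -0.0269). This cannot tell whether libraries with the same replicate number shared a day or culture. With the replicate number as a block 2817 genes were called, with 2 members higher (GSTM3 and MGST3), 5 lower (CYP1A1, CYP4F3, CYP24A1, EPHX2 and UGT2B10) and 3 phase 2 members called.

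In TPM as deposited the log2 fold change turned negative for CYP4F2 (-0.22), CYP4V2 (-0.43), CYP19A1 (-0.32), CYP20A1 (-0.23), POR (-0.39), CYB5A (-0.57), CES1 (-0.6), FMO5 (-0.58), UGT2B4 (-0.4), UGT2B7 (-0.4), GSTK1 (-0.41), GSTM3 (-0.28), GSTO1 (-0.35), GSTZ1 (-0.27), MGST1 (-0.63), MGST2 (-0.23), MGST3 (-0.19), AHR (-0.5) and TIPARP (-0.56). Under quantile normalization it did so for CYP4V2 (-0.03), CES1 (-0.12), FMO5 (-0.05) and MGST1 (-0.07). For nuclear TPM it did so for CYP4V2 (-0.13), CYB5A (-0.17), CES1 (-0.18), FMO5 (-0.17), GSTK1 (-0.01), MGST1 (-0.22), AHR (-0.13) and TIPARP (-0.18). Without 1 library the sign turned for CYP2S1 (-0.34 to 0.21), SULT1C2 (-0.13 to 0.11), MGST1 (-0.07 to 0.08), TIPARP (-0.02 to 0.07), CES2 (-0.08 to 0.06), FMO5 (0 to 0.11), SULT1E1 (-0.28 to 0.02), AHR (-0.06 to 0.19) and CYP4V2 (-0.04 to 0.13). None of these had passed the threshold except the 5 higher members.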

Other observations

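Steroid enzymes outside the 58 members included both a clear rise and a fall. Of 21 listed genes 14 were tested, with 2 higher and 1 lower, or 21.4% called against 29.2% of all tested genes, and the median of their log2 fold changes was -0.03. HSD17B7, which reduces estrone and also acts in cholesterol synthesis, had 27.2 and 32.2 TPM in PDS and 18.6 and 20.2 TPM in Mock. It rose with a log2 fold change of 1.21 ± 0.1 (SE; limma, adjusted p = 0.00575) and was higher under all 4 scalings, at 0.58 in TPM as deposited. HSD17B12, an enzyme of fatty acid elongation, was higher relative to the median gene at 0.48 but at -0.14 in TPM as deposited. HSD17B4, the peroxisomal multifunctional enzyme, had 14.7 and 14.2 TPM in PDS and 30 and 31.4 TPM in Mock and fell (-0.42 ± 0.0563, SE; limma, adjusted p = 0.0105). Among 73 other protein-coding genes of the members' families 11 were tested and 1 passed (9.09%). CYP51A1, the P450 of cholesterol synthesis, had 44.7 and 41.6 TPM in PDS and 24.6 and 25.5 TPM in Mock. It rose under all 4 scalings, with a log2 fold change of 1.39 ± 0.0578 (SE; limma, adjusted p = 0.00287) and 0.76 in TPM as deposited.

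Of 25 listed other drug enzymes 16 were tested, with 1 higher and 7 lower, beside 16.2% higher and 13.0% lower over all tested genes. The median of their log2 fold changes was -0.21, and the list was not tested against other genes. ADH4, an alcohol dehydrogenase that also oxidises retinol, had 24.4 and 22.9 TPM in PDS and 64.7 and 72 TPM in Mock and fell with a log2 fold change of -0.86 ± 0.065 (SE; limma, adjusted p = 0.00549). ADH6 had 20.6 and 20.9 TPM in PDS and 52.3 and 63.4 TPM in Mock (-0.8 ± 0.0896, SE; limma, adjusted p = 0.00768). ALDH1A1, which makes retinoic acid from retinal, had 156 and 142 TPM in PDS and 346 and 386 TPM in Mock (-0.65 ± 0.0677, SE; limma, adjusted p = 0.00717). MAOA, which oxidises serotonin, had 3.19 and 2.94 TPM in PDS and 7.62 and 7.51 TPM in Mock (-0.54 ± 0.0872, SE; limma, adjusted p = 0.015). In all of these the PDS libraries lay below both Mock libraries after scaling. These lists, like the members, were chosen with earlier results of these data known.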
